A study of Homo sapiens with 12 samples.

Results

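The methionine salvage axis described here was a set of 10 genes out of 61541 in a table of RNA sequencing counts. The libraries were labelled as A549, an established line from a human lung adenocarcinoma. MTAP was selected on its counts, which were near 0 in every library of one genotype, so its levels are a description and carry no test. The other 9 genes were taken for their place in the pathway: MRI1, APIP and ADI1 of the salvage route, MAT2A and AHCY of the S-adenosylmethionine (SAM) cycle, PRMT5 and WDR77 of the methylosome, and SRM and ODC1 of polyamine synthesis. They were chosen with earlier results of these data known. All 10 passed the filter on low counts, which left 16768 genes for testing.

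There were 4 groups of 3 libraries each, all from cells described as untreated at day 14 after transduction. Control cells had the genotype "NTC KO" and carried the non-targeting guide gNTC1. Knockout cells had the genotype "TYMS KO", made with Cas9 and, by the column names, the guide gTYMS2; TYMS codes for thymidylate synthase, the enzyme that supplies thymidylate to DNA. Each genotype was grown alone and in co-culture. Parental A549 were, by the series text, grown together with the knockout cells; what the co-cultured control cells grew with, and whether partners were separated before RNA was taken, are not given. It is also not given whether replicates were separate cultures, so p-values measure the spread between these libraries, which may be technical.

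Methionine salvage returns the methylthio group that polyamine synthesis leaves behind. Ornithine decarboxylase (ODC1) makes putrescine, spermidine synthase (SRM) adds to it an aminopropyl group from decarboxylated SAM and releases methylthioadenosine, and MTAP splits methylthioadenosine into adenine and a sugar phosphate that MRI1, APIP and ADI1 carry on toward methionine. MAT2A turns methionine into SAM, methyltransferases use SAM, and AHCY breaks down the S-adenosylhomocysteine that they leave. MTAP lies beside CDKN2A on the short arm of chromosome 9 and is often lost with it in cancers; methylthioadenosine that builds up without MTAP competes with SAM in PRMT5, which methylates arginines together with its partner WDR77.

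Libraries held 14921371 to 35723762 counts. TYMS, the targeted gene, had 95.4 ± 5.27 CPM (counts over the library total, scaled by TMM; mean ± SD, n = 3) in control and 20.9 ± 0.547 in knockout libraries grown alone, and 93.4 ± 2.67 in control and 10.7 to 11.4 in knockout libraries in co-culture. Its exons overlap ENOSF1 and TYMSOS on the opposite strand. In 2 respects the libraries stand apart from what their labels would give. A549 is known as background to lack CDKN2A and MTAP, yet all 6 control libraries held both (CDKN2A 54.7 to 116 CPM), whereas CDKN2A had 0 counts in 5 knockout libraries and 4 in the other. EPCAM and ESRP1, which mark epithelial cells, had a mean of 104 and 38.6 CPM in control libraries grown alone and of 0.620 and 0.0792 CPM in knockout libraries grown alone. The other 5 of 7 epithelial markers were above 5 CPM in every group; of the 7, 5 were called lower and 1 higher in knockout cells alone. A list of 14 detoxification and NRF2 genes associated with A549 summed to 6949 to 8667 CPM in control and 16255 to 17500 CPM in knockout libraries. The counts hold no genotype, and whether both genotypes came from one stock of cells was not tested; loss of TYMS and any other difference between the stocks cannot be told apart in any comparison of knockout with control. Co-culture against growth alone in knockout cells sets libraries of one labelled genotype against each other, but whether the co-cultured ones also hold RNA of the parental partner is not given. Markers of other cells were low: leukocyte markers summed to at most 6.18 CPM, endothelial markers to at most 2.73, and of 7 fibroblast markers only COL1A1 was above 5 CPM. Lung lineage markers, which concern the tissue of the labelled line itself, summed to at most 2.41 CPM. Replicates also differed by the GC content of their genes: the correlation of a library's deviation from its group with GC content ran from -0.757 (co-cultured knockout replicate 3) to 0.736 (co-cultured knockout replicate 2). Values refitted with gene-wise GC offsets are therefore given beside many results below.

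MTAP carries the description, and MAT2A and AHCY are the 2 members of the SAM cycle that differed in opposite directions. The stretch before the start of each is shown, from RefSeq on GRCh38.p14, ending where either RefSeq or GENCODE places the gene's start. Capitals mark matches on either strand to CACGTG (E-box), GGGCGG (GC box), CCAAT and TATAAA. MTAP is shown from chr9:21802386-21802542 (plus strand, 157 bases), MAT2A from chr2:85538918-85539164 (plus strand, 247 bases) and AHCY from chr20:34311803-34312052 (minus strand, 250 bases).
MTAP: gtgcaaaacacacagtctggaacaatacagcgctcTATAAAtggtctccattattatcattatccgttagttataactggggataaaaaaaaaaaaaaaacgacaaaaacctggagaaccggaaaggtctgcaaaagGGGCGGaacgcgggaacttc
MAT2A: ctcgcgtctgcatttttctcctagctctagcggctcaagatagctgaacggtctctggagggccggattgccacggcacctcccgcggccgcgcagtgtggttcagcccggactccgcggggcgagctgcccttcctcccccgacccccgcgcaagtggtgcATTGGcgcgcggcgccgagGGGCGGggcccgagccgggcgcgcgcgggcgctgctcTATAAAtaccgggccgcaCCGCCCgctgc
AHCY: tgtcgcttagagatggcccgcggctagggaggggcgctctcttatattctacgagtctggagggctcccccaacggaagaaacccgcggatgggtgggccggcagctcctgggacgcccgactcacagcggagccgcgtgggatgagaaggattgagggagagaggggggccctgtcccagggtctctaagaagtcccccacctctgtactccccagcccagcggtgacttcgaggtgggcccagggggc
MTAP's stretch held 1 GC box and 1 TATAAA, and had 40.8% G and C. MAT2A's held 2 GC boxes, 1 CCAAT and 1 TATAAA with no overlap among them, at 72.1% G and C, and this stretch of AHCY held none of the 4 motifs. AHCY has 2 further starts in RefSeq, lower on the chromosome, whose windows hold 2 GC boxes each. The bases left out of MTAP's window, between the GENCODE and RefSeq starts, bring it to 2 GC boxes and 1 CCAAT. Over 35116 RefSeq windows of 250 bases, 6.34% held an E-box, 42.6% a GC box, 32.0% a CCAAT and 10.7% a TATAAA. All 10 members were found in that table, with 13 whole windows of 250 bases in all, of which 4 held an E-box, 11 a GC box, 5 a CCAAT and 2 a TATAAA. A match describes letters only.

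MTAP (ENSG00000099810, chr9:21802543-21937651, plus strand, GENCODE 29 on GRCh38) was expressed in both control groups and was almost absent from both knockout groups. Control libraries grown alone held 79.5, 55.3 and 43.8 CPM, a mean of 59.5 ± 18.2 (SD, n = 3). Co-cultured control libraries held 65.3, 60.1 and 53.9 CPM, a mean of 59.8 ± 5.74. Knockout libraries held 0.550, 0.647 and 0.548 CPM alone, from 13, 13 and 9 counts, and 0.302, 0.626 and 0.485 CPM in co-culture, from 7, 21 and 13 counts. The highest knockout library (0.647 CPM) was far under the lowest control library (43.8 CPM). The knockout mean was 0.977% of the control mean alone (102-fold lower) and 0.788% in co-culture (127-fold lower). These values chose the gene and are given without a test.

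MTAP's ranges in lone and co-cultured libraries overlapped in each genotype. In bulk RNA, fewer cells of a type and less RNA per cell cannot be told apart; the co-cultured knockout libraries held 41 MTAP counts in all and the co-cultured control libraries 3992. Exons of MTAP overlap those of AL359922.1 and ERVFRD-3 on the same strand and of AL359922.2 on the opposite strand, and the strand setting of the counting is not given in the sources used here, so whether the few counts in knockout libraries belong to MTAP was not tested.

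**Figure D1:**
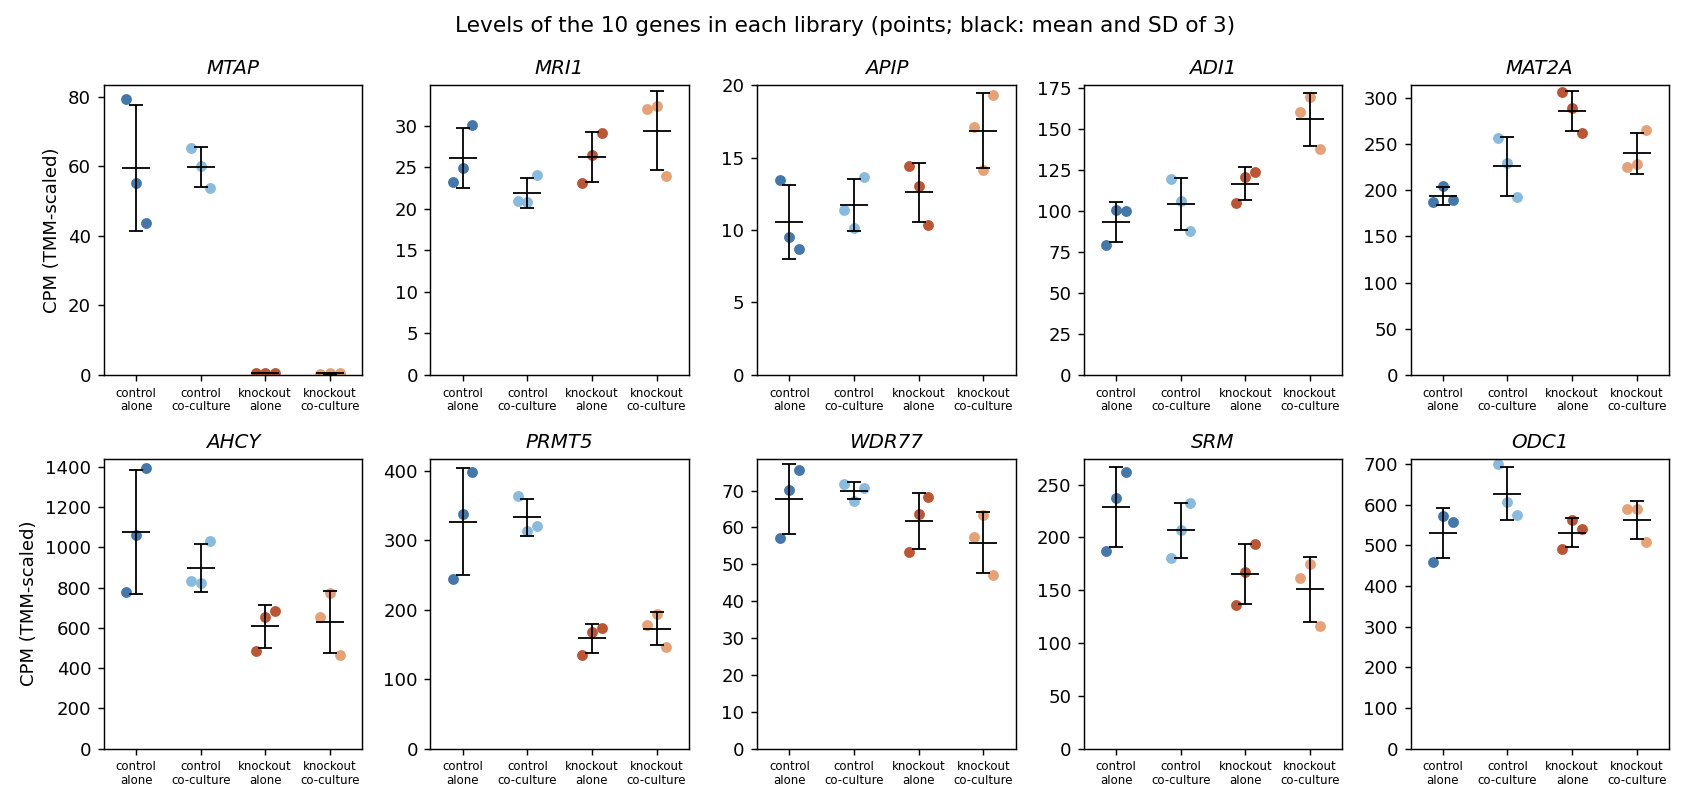
Level of each of the 10 genes (y axis, TMM-scaled CPM from 0) in the 4 groups (x axis); each point is a library and the black bar and whiskers are the mean and SD of 3. MTAP lies between 43.8 and 79.5 CPM in control libraries and at most at 0.647 CPM in knockout libraries, and PRMT5 is lower in every knockout library than in every control library.

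The genes around MTAP are described by their RNA levels. Whether DNA was lost there was not tested. Of 26 listed neighbours on the same arm, up to 5.52 Mb from it, 16 were tested. CDKN2A and CDKN2B, inhibitors of cyclin-dependent kinases that lie 0.165 and 0.200 Mb above MTAP's start, were the 2 genes whose 6 knockout libraries all lay below the 6 control libraries. CDKN2A had a median of 81.4 CPM in control and of 0.0 CPM in knockout libraries, and its lone knockout libraries were at least 649-fold lower than the lone control libraries when set against a floor of 3 counts per library. CDKN2B had 1.61 to 2.89 CPM in control libraries and 0 counts in all 6 knockout libraries, at least 11.7-fold lower alone and at least 20.8-fold lower in co-culture. These floors cover counting error only.

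RNA of a gene lying across CDKN2B, and of genes on either side, was present in the knockout libraries. CDKN2B-AS1, an antisense RNA, starts 0.192 Mb above MTAP's start, overlaps CDKN2A on the opposite strand and spans the position of CDKN2B. This RNA had 2.37 to 3.85 CPM in knockout and 0.995 to 1.67 CPM in control libraries. DMRTA1, at 0.644 Mb, had 0.895 to 2.89 CPM in knockout and 0.115 to 0.416 CPM in control libraries. MIR31HG, 0.347 Mb below, had 14.4 to 22.0 CPM in knockout and 8.86 to 12.2 CPM in control libraries. Of the 16 tested neighbours, 7 had all knockout libraries above all control libraries and 7 overlapped. Alone, 12 of the 16 were called higher and 3 lower, beside 28.0% and 28.6% of all genes called; their median log2 difference was 1.26, beside 0.09 over all genes. With GC offsets, for which the all-gene shares are not given here, 10 were higher and 3 lower alone, with a median of 0.78. In co-culture 8 were called higher and 2 lower, with a median of 0.63, beside 24.1% and 25.3% of all genes called.

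**Figure D2:**
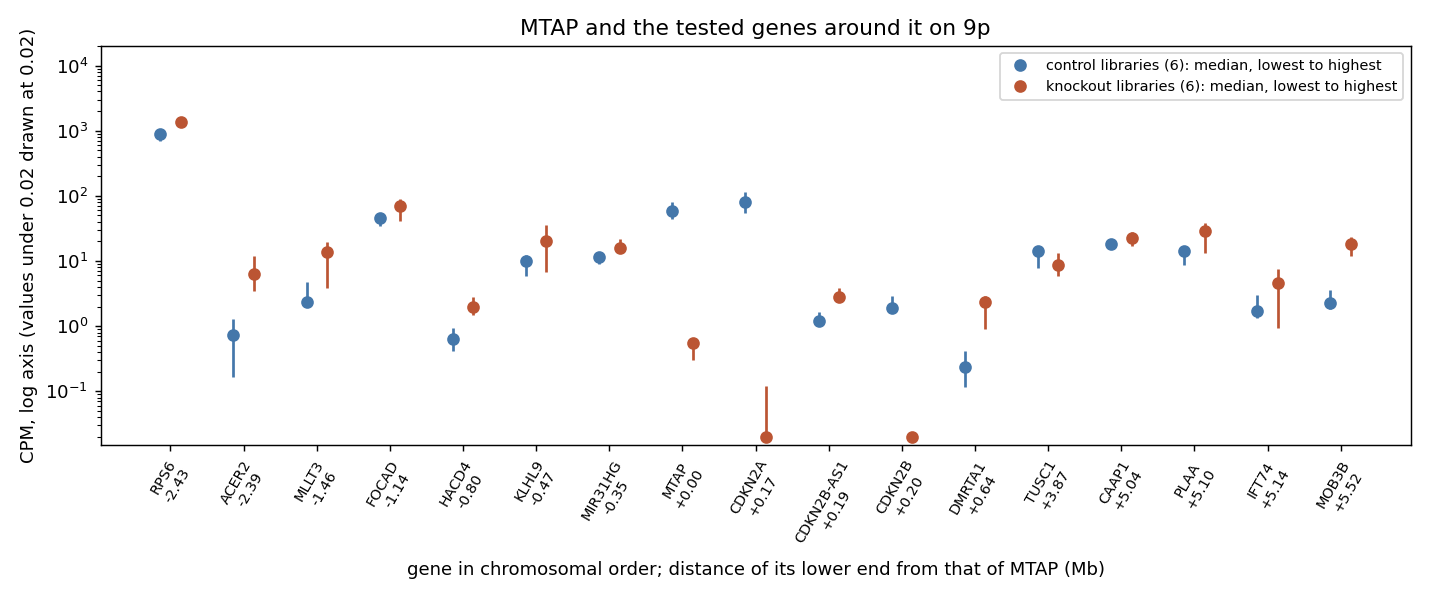
Level (y axis, CPM on a log axis; values under 0.02 drawn at 0.02) of MTAP and its 16 tested neighbours in chromosomal order (x axis, with the distance in Mb from MTAP's lower end); points are medians and lines run from the lowest to the highest of 6 libraries per genotype. MTAP, CDKN2A and CDKN2B are the 3 genes with knockout libraries far below control libraries, while RPS6, ACER2, HACD4, MIR31HG, CDKN2B-AS1, DMRTA1 and MOB3B lie higher in every knockout library.

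By a fixed measure, the root mean square difference in centred log2 CPM over the 12 libraries, the genes most like MTAP among 6348 with at least 20 CPM in control were ANO1 (0.36), ENTPD2 (0.43), LARGE2 (0.43), IFITM3 (0.47) and DOC2B (0.54). These genes were picked for this likeness, so their low levels in knockout libraries follow from the choice and are a description. ANO1, a calcium-activated chloride channel on chromosome 11, had 30.9 to 40.8 CPM in control and 0.172 to 0.548 CPM in knockout libraries. IFITM3, an interferon-induced membrane protein, had a median of 333 CPM in control and of 3.10 CPM in knockout libraries. ENTPD2 is also on chromosome 9, starting at 137048098, far from MTAP; LARGE2 is on chromosome 11 and DOC2B on chromosome 17.

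Per kilobase of merged exons, the levels of the 10 genes in control cells alone ran in the order AHCY (277 CPM per kb), ODC1 (178), SRM (121), PRMT5 (94.4), MAT2A (43.2), WDR77 (24.1), ADI1 (16.7), MRI1 (7.56), MTAP (4.07) and APIP (1.98). MTAP's merged length of 14617 bases counts every annotated isoform and lowers its value. Only SRM and PRMT5 were neighbours whose libraries overlapped in that order. In knockout cells alone the order was ODC1 (179), AHCY (156), SRM (87.2), MAT2A (63.7), PRMT5 (45.8), WDR77 (22.0), ADI1, MRI1 (7.60), APIP (2.36) and MTAP (0.0398), with overlap between ODC1 and AHCY and between WDR77 and ADI1. MAT2A thus stood above PRMT5 in lone knockout and below it in lone control libraries, each time with no overlap.

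Knockout was first compared with control in cells grown alone. PRMT5 and AHCY fell and MAT2A rose, while the 6 other tested members were not called. The share of members called (3 of 9) was below that of all genes, of which 56.6% were called, so calls were no more frequent among the members than among genes at large. The median log2 difference of the 9 members was 0.00, beside 0.09 over all genes; with library size alone as the scaling the median of all genes was 0.24, and that of the interaction below was -0.11. An unadjusted p under 0.05 was found for 4 members and 10364 of 16768 genes, and DESeq2 called 3 members and 9775 genes. The groups did not overlap for 4 of the 9 members and for 65.2% of all genes.

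PRMT5, the type II arginine methyltransferase (ENSG00000100462, chr14:22920511-22929585, minus strand), had 245, 339 and 398 CPM in control and 134, 168 and 174 CPM in knockout libraries alone. In co-culture it had 364, 314 and 321 CPM in control and 177, 193 and 147 CPM in knockout libraries. Every knockout library lay below every control library in both settings. The log2 difference was -1.04 alone (SE 0.18, adjusted p = 0.000388, edgeR) and -0.95 in co-culture (SE 0.18, adjusted p = 0.000881), or 0.485 and 0.518 of the control level. With GC offsets it was -0.98 and -0.97. Its call held in all 19 alternatives in each setting. Its exons overlap those of PRMT5-AS1 on the opposite strand. Other members share this limit. Exons of MRI1, AHCY and WDR77 overlap those of C19orf53, AL035458.2 and AL390195.1 on the same strand. Exons of MRI1, APIP, ADI1, MAT2A and WDR77 overlap those of genes on the opposite strand. Whether reads were shared was not tested.

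WDR77, the partner that PRMT5 needs for its activity, had 57.1 to 75.6 CPM in control and 53.4 to 68.2 CPM in knockout libraries alone. It was not called, with a log2 difference of -0.13 (95% interval -0.46 to 0.19, adjusted p = 0.468, edgeR). In co-culture it had 67.3 to 71.8 CPM in control and 47.1 to 63.3 CPM in knockout libraries, which did not overlap, and the difference of -0.32 (SE 0.15) missed the threshold (adjusted p = 0.0942). It was called there in 4 of 19 alternatives, including that with GC offsets (adjusted p = 0.0355), with adjusted p from 0.0188 to 0.496.

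AHCY (ENSG00000101444, chr20:34280268-34311802, minus strand) had 779, 1060.0 and 1395 CPM in control and 485, 653 and 685 CPM in knockout libraries alone. The groups did not overlap, and AHCY fell by 0.83 on the log2 scale (SE 0.24, adjusted p = 0.00979, edgeR); with GC offsets it fell by 0.47. In co-culture it had 833, 826 and 1033 CPM in control and 653, 772 and 464 CPM in knockout libraries, again with no overlap. There the difference was -0.51 (SE 0.24, adjusted p = 0.0906), called in 5 of 19 alternatives with adjusted p from 0.00592 (GC offsets) to 0.246.

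MAT2A, the SAM synthetase of cells outside the liver (ENSG00000168906, chr2:85539165-85545280, plus strand), had 187, 205 and 189.9 CPM in control and 306, 289 and 262 CPM in knockout libraries alone. The groups did not overlap and MAT2A rose by 0.56 on the log2 scale (SE 0.14, adjusted p = 0.00388, edgeR). With GC offsets the difference was 0.21 and was not called (adjusted p = 0.0583; 0.000413 to 0.0726 over 19 alternatives, 17 of which called it). In co-culture control libraries had 256, 229 and 193 CPM and knockout libraries 225, 229 and 266 CPM. These overlapped, with a difference of 0.09 (95% interval -0.21 to 0.38, adjusted p = 0.63).

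Of MRI1, APIP and ADI1, the 3 members that act past MTAP, none was called alone. MRI1, the isomerase of methylthioribose phosphate, had a log2 difference of 0.01 (95% interval -0.36 to 0.37, adjusted p = 0.979, edgeR). APIP, the dehydratase that follows, had a difference of 0.26 (interval -0.22 to 0.74, adjusted p = 0.332). ADI1, the dioxygenase that makes the keto acid of methionine, had 78.9 to 100.3 CPM in control and 105 to 124 CPM in knockout libraries, which did not overlap, with a difference of 0.32 (SE 0.15, adjusted p = 0.0876). With GC offsets the differences of APIP and ADI1 were -0.24 and -0.13, so neither has a settled direction alone.

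Of the polyamine enzymes, SRM had 187 to 262 CPM in control and 136 to 193 CPM in knockout libraries alone, a log2 difference of -0.47 (SE 0.19, adjusted p = 0.0527, edgeR). GC offsets turned its direction, to 0.31 (adjusted p = 0.00111; 0.00111 to 0.189 over 19 alternatives), and its exons hold 63.7% G and C. ODC1 had 459 to 573 CPM in control and 492 to 562 CPM in knockout libraries, with a difference of 0.00 (95% interval -0.30 to 0.31).

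**Figure D3:**
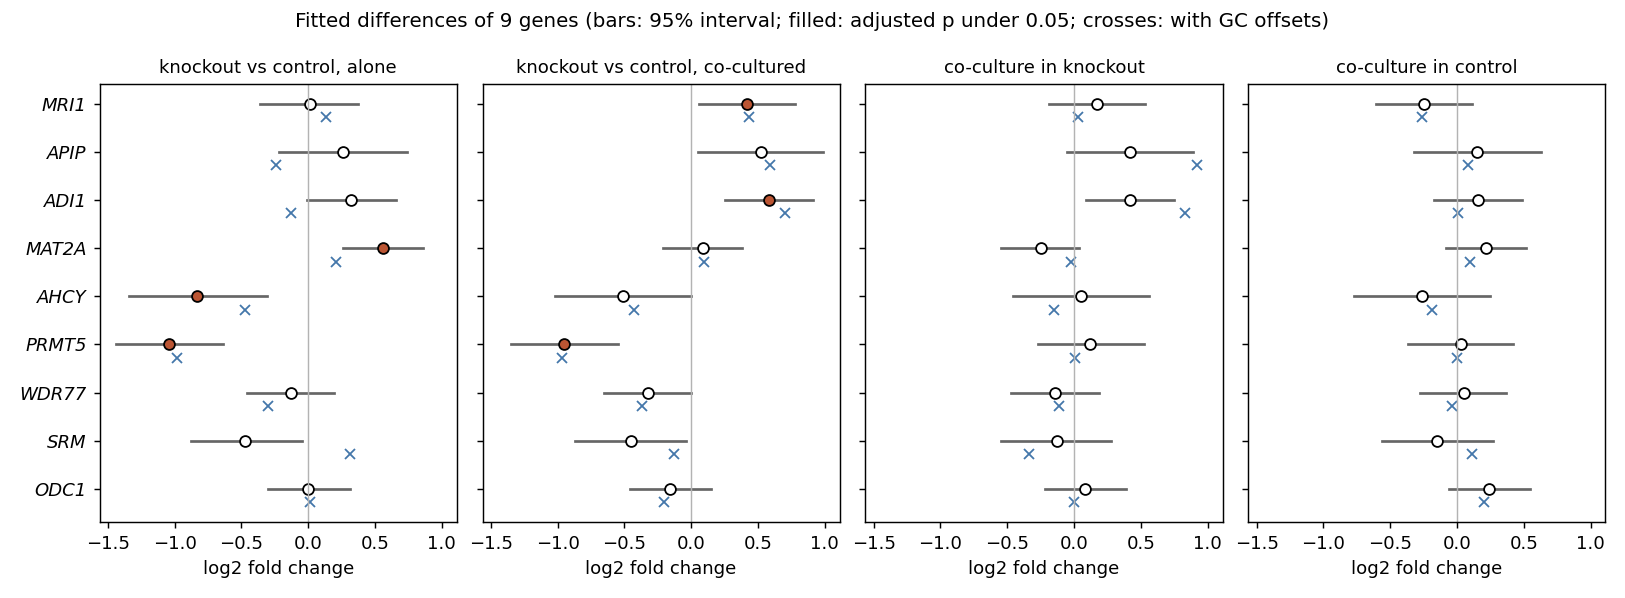
Fitted log2 difference (x axis) of the 9 tested genes (y axis) in 4 comparisons; bars are 95% intervals, filled points have an adjusted p under 0.05 and crosses are the values with GC offsets. PRMT5 is filled at -1.04 and -0.95 in both comparisons of knockout with control with crosses close to the points, whereas the cross of SRM alone lies on the other side of 0.

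Knockout was then compared with control in co-culture. ADI1 and MRI1 rose and PRMT5 fell, 3 of 9 members, where 49.4% of all genes were called (24.1% higher and 25.3% lower). The median difference of the 9 members was -0.16, beside -0.02 over all genes. An unadjusted p under 0.05 was found for 5 members and 9261 genes, and DESeq2 called 3 members (ADI1, APIP and PRMT5) and 8498 genes. The groups did not overlap for 6 of the 9 members and for 55.4% of all genes.

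ADI1 (ENSG00000182551, chr2:3497361-3519736, minus strand) had 119, 106 and 87.4 CPM in control and 160.0, 169.6 and 138 CPM in knockout libraries in co-culture. Every knockout library was above every control library, and ADI1 rose by 0.58 on the log2 scale (SE 0.15, adjusted p = 0.00678, edgeR), a call kept in all 19 alternatives. MRI1 (ENSG00000037757, chr19:13764532-13774282, plus strand) had 20.9, 20.9 and 24.1 CPM in control and 32.0, 32.4 and 23.9 CPM in knockout libraries. Knockout replicate 3 lay within the range of the control libraries, and the call of 0.42 (SE 0.17, adjusted p = 0.0493) stood in 4 of 19 alternatives (adjusted p 0.00371 to 0.185), in 1 of the 12 that leave out a library. APIP had 10.1 to 13.7 CPM in control and 14.1 to 19.3 CPM in knockout libraries, which did not overlap, with a difference of 0.52 (SE 0.22, adjusted p = 0.0633; 0.0104 to 0.202 over 19 alternatives, 5 of which called it). These 3 members had positive fitted differences in co-culture, and the call of ADI1 held under each alternative. ENOPH1, a salvage enzyme that acts between APIP and ADI1 and is no member, was called lower there (-0.51, adjusted p = 0.048, edgeR), close to the threshold. Its difference was -0.5 with GC offsets, and its call was lost with library size as the only scaling.

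The other members in co-culture did not pass. SRM had a difference of -0.45 (SE 0.19, adjusted p = 0.0665, edgeR), with 181 to 232 CPM in control and 116 to 175 CPM in knockout libraries. With GC offsets it was -0.13. ODC1 had a difference of -0.16 (95% interval -0.46 to 0.15, adjusted p = 0.376). Both comparisons of knockout with control rest on separate libraries but on one model of the spread.

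Co-culture itself was compared with growth alone within each genotype. In knockout cells none of the 9 members was called, where 11.4% of all genes were. ADI1 had the only unadjusted p under 0.05, and DESeq2 called none. ADI1 had 105, 121 and 124 CPM alone and 160.0, 169.6 and 138 CPM in co-culture, which did not overlap. Its difference was 0.42 (SE 0.15, adjusted p = 0.0911, edgeR; 0.028 to 0.293 over 19 alternatives). Without co-cultured knockout replicate 3, the library at the low end of the GC trend, ADI1 was called at 0.50 (adjusted p = 0.0293). All genes called then numbered 5680, against 1907 with that library. With GC offsets 3 members were called: ADI1 at 0.83 (adjusted p = 0.028), APIP at 0.92 (adjusted p = 0.00206) and SRM at -0.34 (adjusted p = 0.00245). More of all genes were called with these offsets too, as counted below, so the 11.4% does not serve for this count.

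MAT2A had 306, 289 and 262 CPM alone and 225, 229 and 266 CPM in co-cultured knockout libraries, with a difference of -0.25 (95% interval -0.55 to 0.04, adjusted p = 0.232, edgeR). PRMT5 had a difference of 0.12 (interval -0.27 to 0.52, adjusted p = 0.684), AHCY of 0.05 (interval -0.46 to 0.56) and MRI1 of 0.17 (interval -0.19 to 0.53). TYMS was also lower in co-cultured than in lone knockout libraries (-0.92, SE 0.11, adjusted p = 0.000307). Both tested leukocyte markers rose with co-culture in knockout cells, where the list of 5 summed to 0.896 to 0.974 CPM alone and 4.25 to 5.31 CPM in co-culture; their part in the co-culture results was not tested.

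In control cells co-culture gave no call among the 9 members or among all genes (0.00%), with edgeR and with DESeq2; no member and 540 genes had an unadjusted p under 0.05. The differences ran from -0.26 for AHCY to 0.24 for ODC1, which had 459, 573 and 557 CPM alone and 702, 607 and 575 CPM in co-culture. The interaction, the co-culture difference in knockout minus that in control cells, was called for no member and for 1.80% of all genes (1.51% higher and 0.286% lower). MAT2A had the only unadjusted p under 0.05 (-0.47, SE 0.19, adjusted p = 0.227), and DESeq2 called no member. With GC offsets MAT2A's interaction was -0.12, and SRM was called at -0.45 (adjusted p = 0.0126; 0.0126 to 1.0 over its alternatives).

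Around the 10 genes, 6 lists of other pathway genes were counted, with 70 tested genes in all. Alone, 15 of the 70 rose and 26 fell, and in co-culture 13 rose and 23 fell. The shares of all genes, against which the counts of each list stand, were 28.0% higher and 28.6% lower alone and 24.1% higher and 25.3% lower in co-culture. They belong to the main fit, and those with GC offsets are not given here. Of 8 tested transporters that can carry methionine, 4 rose and 1 fell alone, and 4 rose and 2 fell in co-culture. SLC7A5, the large neutral amino acid carrier that brings in methionine, rose from 1351 ± 255 to 3929 ± 422 CPM alone (log2 difference 1.54, SE 0.20, adjusted p = 3.94e-05, edgeR) and was 1310 ± 201 and 3297 ± 694 CPM in co-culture (1.33, adjusted p = 0.000138). SLC3A2, its heavy chain, rose by 1.13 (adjusted p = 0.00021) and 1.26 (adjusted p = 9.94e-05). SLC43A2, another neutral amino acid carrier, rose by 1.16 alone (adjusted p = 0.000183). SLC7A8, another light chain that pairs with SLC3A2, fell from 9.97 ± 2.14 to 0.416 ± 0.0152 CPM alone (-4.57, adjusted p = 4.73e-08) and by 3.52 in co-culture (adjusted p = 2.02e-07). SLC38A2, a carrier of small neutral amino acids, fell in co-culture by 1.55 (SE 0.46, adjusted p = 0.013), a call lost without co-cultured knockout replicate 1 (adjusted p = 0.0556; 1.59e-12 to 0.0556 over 19 alternatives). The list's median was 0.68 alone (0.30 with GC offsets) and 0.16 in co-culture.

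In the list of the last salvage steps and the fate of adenine and adenosine, 2 of 11 tested genes rose and 3 fell alone, and 3 rose and 3 fell in co-culture, with medians of 0.01 and 0.16. GOT1, an aminotransferase able to act on the keto acid of methionine, fell by 1.45 alone and by 1.29 in co-culture (adjusted p = 1.59e-05 and 4.59e-05, edgeR), from 145 ± 27.5 to 53.3 ± 6.74 CPM alone. APRT, which returns the adenine that MTAP releases to AMP, fell by 0.89 alone (SE 0.23, adjusted p = 0.00495), which with GC offsets was -0.12 (adjusted p = 0.213; 2.54e-05 to 0.237 over 19 alternatives). In co-culture it fell by 0.70 (adjusted p = 0.0208; -0.39 with GC offsets), a call lost without co-cultured control replicate 3 (adjusted p = 0.0696), without co-cultured knockout replicate 3 (adjusted p = 0.059) and with only the 2 groups fitted (adjusted p = 0.0705; 0.000639 to 0.0705 over 19 alternatives). ADK, adenosine kinase, rose by 0.96 alone and 1.15 in co-culture (adjusted p = 0.000894 and 0.000235). ADA, adenosine deaminase, rose by 0.90 alone (adjusted p = 0.00246). With GC offsets ADK alone was 0.44.

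In the methionine cycle and transsulfuration, 3 of 11 tested genes rose and 4 fell alone, and none rose and 3 fell in co-culture, with medians of 0.37 and -0.29. With GC offsets the lone median was -0.12, and 6 fell in co-culture. CTH, the last enzyme of transsulfuration to cysteine, fell from 5.51 ± 0.0974 to 1.56 ± 0.198 CPM alone (-1.81, SE 0.23, adjusted p = 2.47e-05, edgeR) and by 1.80 in co-culture (adjusted p = 2.4e-05). MMACHC, which processes the cobalamin that methionine synthase uses, fell by 2.12 and 2.17 (adjusted p = 1.05e-06 and 9.1e-07); its exons overlap genes on the opposite strand. The calls upward were less firm. MTR, methionine synthase, had 12.6 ± 5.81 CPM in control and 28.6 ± 5.14 in knockout libraries alone (1.18, SE 0.42, adjusted p = 0.0289), and was called in 14 of 19 alternatives (adjusted p 1.16e-05 to 0.126). METTL16, which controls MAT2A RNA, rose by 0.51 (SE 0.16, adjusted p = 0.0173; 0.29 with GC offsets), called in 16 of 19 alternatives (0.00661 to 0.0828). Without lone control replicate 2 none of the list was called higher.

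**Figure D4:**
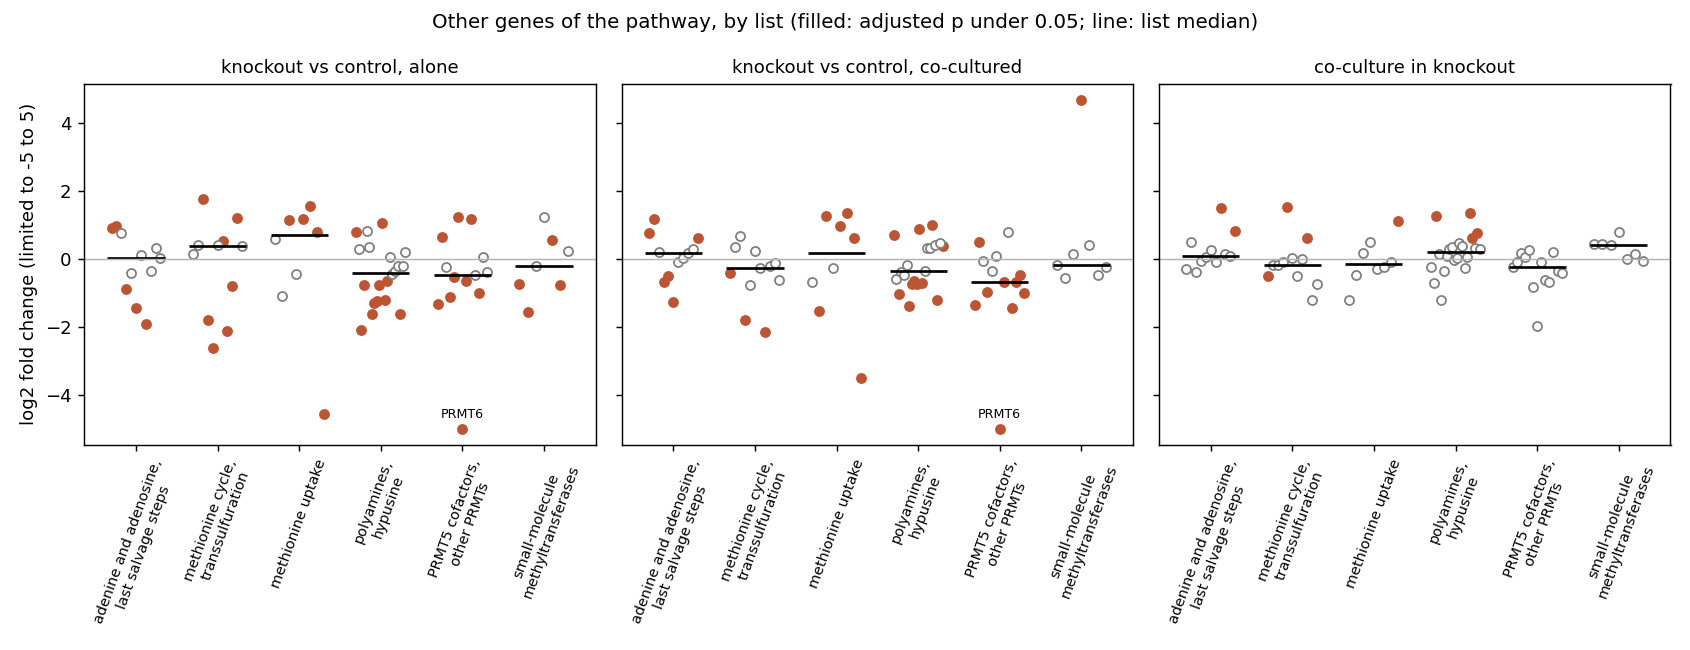
Log2 difference (y axis, limited to -5 to 5) of each tested gene of 6 pathway lists (x axis) in 3 comparisons; filled points have an adjusted p under 0.05 and lines are list medians. PRMT6 lies past the lower limit in both comparisons of knockout with control, and the polyamine list has its median at -0.41 alone and 0.21 for co-culture in knockout cells.

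Among genes of polyamine synthesis, breakdown, transport and hypusination, 2 of 20 tested rose and 9 fell alone, and 4 rose and 7 fell in co-culture, with medians of -0.41 and -0.38. With GC offsets 7 rose and 10 fell in co-culture. SLC18B1, a vesicular polyamine carrier, fell from 15.8 ± 1.44 to 5.11 ± 0.742 CPM alone (-1.63, SE 0.20, adjusted p = 1.56e-05, edgeR) and by 1.23 in co-culture (adjusted p = 0.000148). AZIN2, an inhibitor of antizyme, fell by 1.62 and 1.40 (adjusted p = 8.45e-05 and 0.000264). AGMAT, annotated as an agmatinase, rose by 0.79 alone (adjusted p = 0.00916). EIF5A2, a paralog of the hypusinated factor EIF5A, rose by 1.05 alone (adjusted p = 0.00421), which with GC offsets was 0.45 (adjusted p = 0.0714; 0.000167 to 0.0719 over 19 alternatives). In co-culture it rose by 0.86 (adjusted p = 0.0129), lost without co-cultured control replicate 3 (adjusted p = 0.0703) or co-cultured knockout replicate 3 (adjusted p = 0.0535; 0.000631 to 0.0703 over 19 alternatives).

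Co-culture of knockout cells raised 4 of these 20 genes and lowered none, where 5.97% of all genes were called higher and 5.40% lower with edgeR. An unadjusted p under 0.05 was found for 7 of the 20 and for 5053 of 16768 genes. With DESeq2 5 were higher and 1 lower, where 3347 of all genes were called. With GC offsets 7 rose and 1 fell, and the list's median was 0.09 against 0.21. Without lone knockout replicate 1 the count raised was 1, and without co-cultured knockout replicate 3, 5 rose and 3 fell. Calls over all genes were also more numerous with GC offsets and without co-cultured knockout replicate 3. SAT1, the acetyltransferase that starts polyamine breakdown, had 204, 182 and 147 CPM in lone and 424, 400.2 and 535 CPM in co-cultured knockout libraries. Every co-cultured library was above every lone one, a rise of 1.35 (SE 0.18, adjusted p = 0.000563, edgeR) that held in all 19 alternatives. SMOX, spermine oxidase, rose by 0.75 (SE 0.21, adjusted p = 0.0371), called in 11 of 19 alternatives (0.000207 to 0.153), in 5 of the 12 that leave out a library. SAT1 was also higher in knockout than in control libraries in co-culture, at 453 ± 71.8 against 226 ± 27.4 CPM (adjusted p = 0.000405).

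Of the PRMT5 cofactors, spliceosomal substrates and other arginine methyltransferases, 3 of 13 tested rose and 6 fell alone, and 1 rose and 8 fell in co-culture. The medians were -0.49 and -0.70, beside 0.09 and -0.02 over all genes. With GC offsets 1 rose and 8 fell alone. PRMT6, which methylates arginine in histone tails, had 10.0 to 12.9 CPM in the 6 control libraries and 1 count in all over the 6 knockout libraries, 5 of which held none. Against a floor of 3 counts per library it was at least 75.0-fold lower alone and at least 95.4-fold lower in co-culture. CARM1, also known as PRMT4, fell from 252 ± 52.1 to 99.8 ± 16.3 CPM alone (-1.34, SE 0.20, adjusted p = 0.00012, edgeR) and from 215 ± 23.3 to 83.9 ± 18.2 CPM in co-culture (adjusted p = 0.000116). With GC offsets CARM1 alone was -0.64. CLNS1A, the cofactor that brings Sm proteins to PRMT5, rose by 0.62 alone (SE 0.18, adjusted p = 0.0092) with overlapping groups and by 0.49 in co-culture (adjusted p = 0.0334). With GC offsets the lone difference was 0.05 (adjusted p = 0.839; 0.00269 to 0.879 over 19 alternatives), and the co-culture call stood in 12 of 19 (0.0069 to 0.0979). PRMT3, which methylates a ribosomal protein, rose by 1.22 alone (SE 0.38, adjusted p = 0.0152; 0.62 with GC offsets), called in 16 of 19 alternatives (8.84e-05 to 0.074); without lone control replicate 2 no gene of this list was called higher. Co-culture of knockout cells gave no call in this list with edgeR, where 11.4% of all genes were called. An unadjusted p under 0.05 was found for 3 of its genes and for 5053 of 16768 genes, and DESeq2 called 1 and 3347. Without co-cultured knockout replicate 3, 5 of the list were called lower, but calls over all genes also became more numerous without that library.

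Of small-molecule methyltransferases that use SAM, 1 of 7 tested rose and 3 fell alone, and 1 rose and none fell in co-culture, with medians of -0.22 and -0.18. With GC offsets 1 rose and 1 fell alone. GAMT, which makes creatine and is a main user of SAM in the body, fell from 221 ± 61.0 to 74.6 ± 17.4 CPM alone (-1.57, SE 0.28, adjusted p = 0.000402, edgeR; -1.0 with GC offsets). In co-culture its difference was -0.57 (adjusted p = 0.104). NNMT, which methylates nicotinamide, rose by 0.54 alone (SE 0.17, adjusted p = 0.0186), called in 15 of 19 alternatives (0.00045 to 0.0842).

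For co-culture in knockout cells 9 of the 70 pathway genes were called higher and 1 lower, beside 5.97% and 5.40% of all genes. With GC offsets 18 were called higher and 13 lower. Calls over all genes also became more numerous with these offsets, as counted below, so the 2 shares do not serve for those counts. PNP, purine nucleoside phosphorylase, which splits inosine and guanosine as MTAP splits methylthioadenosine, had 101, 124 and 116 CPM alone and 203, 215 and 174 CPM in co-culture. The groups did not overlap, and PNP rose by 0.80 (SE 0.14, adjusted p = 0.00412, edgeR), a call kept in all 19 alternatives. It was also higher in knockout than in control libraries in co-culture, by 0.59 (adjusted p = 0.00352). AHCYL1, a relative of AHCY, fell by 0.52 (adjusted p = 0.0372; called in 8 of 19, 0.00144 to 0.227). By list, 2 genes of the last salvage steps, 2 of the methionine cycle, 1 transporter and 4 polyamine genes rose and 1 gene of the cycle fell. No gene of the 6 lists was called for co-culture in control cells with edgeR, where 1 had an unadjusted p under 0.05 and DESeq2 called none.

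Further called genes behind the smaller counts are named here after their values were seen, all as log2 differences. Alone, CBS, the first enzyme of transsulfuration, rose by 1.75, PRMT9 rose by 1.16 (not called with GC offsets, 0.61) and the amino acid exchanger SLC7A6 rose by 0.79. Alone, IL4I1, an amino acid oxidase, fell by 1.92 (-1.24 with GC offsets), MAT1A, the SAM synthetase of liver, fell by 2.64 and PEMT, which makes phosphatidylcholine, fell by 0.77 (not called with GC offsets, -0.04). In co-culture SLC7A6 rose by 0.60, SMS, spermine synthase, rose by 0.37, and ENOPH1 fell by 0.51 and AHCYL1 by 0.43. HNMT, which methylates histamine, was at least 6.44-fold higher in co-cultured knockout than in co-cultured control libraries, against a floor of 3 counts per library. Between lone and co-cultured knockout libraries IL4I1 rose by 1.49, MAT1A by 1.52, SLC7A8 by 1.10, ARG2, a mitochondrial arginase, by 1.25 and SAT2 by 0.61. Several of these differences rest on low levels. CBS and IL4I1 alone, and HNMT in co-culture (floor 0.138 CPM), had a mean under 5 CPM even in the higher group. The same held for IL4I1, MAT1A, SLC7A8 and ARG2 between lone and co-cultured knockout libraries.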

How the data were processed

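RNA sequencing counts of 12 libraries labelled as A549 were used. The values, as the authors deposited them, are raw read counts per Ensembl gene in a single table; per the submitters' processing notes the tools included FastQC, STAR 2.7.9a, featureCounts, R 4.2.1 and DESeq2 1.36.0 with the builds GRCh38 and hg38. Their settings, annotation and strand setting are not given in the sources used here. Positions, exon lengths and GC content came from GENCODE 29 on GRCh38, in which 58366 of 61541 identifiers were found.

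Counts were tested in R 4.3.3 with edgeR 4.0.16 (filterByExpr, TMM, robust quasi-likelihood F-test, 1 model of 4 group means over 12 libraries), with Benjamini-Hochberg adjustment over 16768 genes and a threshold of 0.05. The script was tested on simulated data. Alternatives were DESeq2 1.42.0, library size as the only scaling, no filter, only the 2 groups compared, a replicate block, GC offsets, both of these together, and leaving out each library. A gene at 3 counts or fewer in every library of a group was set to that floor. The biological coefficient of variation was 22.1%. Replicates differed by more than counting noise (chi-square per gene 8.35 to 131). Sequences came from RefSeq on GRCh38.p14.

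The members and lists were chosen with earlier results of these data known. Beside the 10 members, the rule named, for each of 6 pathway lists and each comparison, up to 2 higher and 2 lower genes with the smallest p among those called with at least 5 CPM in the higher group, then the tested neighbours of MTAP and the 5 genes most like it. Some genes that this rule or these lists hold are counted but not reported here by name.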

Additional observations from a re-analysis of the deposited data

Results flagged for a closer look

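SAT1, the polyamine acetyltransferase, responded differently to co-culture in the 2 genotypes. Its log2 difference was 1.35 in knockout cells (SE 0.18) and its level was 229 ± 35.9 CPM alone and 226 ± 27.4 CPM in co-culture in control cells (SD, n = 3). The interaction was 1.37 (SE 0.25, adjusted p = 0.0136, edgeR). It was called in 16 of 18 alternatives with adjusted p from 8.37e-07 to 0.073. The call was lost with library size as the only scaling (1.28, adjusted p = 0.073) and without co-cultured control replicate 2 (1.29, adjusted p = 0.0607).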

How the results depend on the processing

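Of 846 refitted values of the members, 735 kept direction and call, 59 changed sign, 35 gained and 17 lost the call; of 854 of the other named genes, 789 kept both and 65 lost the call. The cause of each change was not tested. Members called numbered 5 (alone) and 6 (co-culture) with library size only, 6 in co-culture with GC offsets and with the replicate block and GC offsets, and 2 to 6 there when 1 library was left out (6 without co-cultured knockout replicate 2). For co-culture in knockout cells they numbered 1 without the filter, 3 with GC offsets with or without the block, and 0 to 1 with a library left out. For the interaction, 1 member was called with GC offsets with or without the block. Knockout against control called 56.6% (alone) and 49.4% (co-culture) of all genes in the main fit. Its all-gene shares under the alternatives are not given here, so its member counts above have no matching background. Genes called for co-culture in knockout cells numbered 3347 (DESeq2), 3340 (no filter), 664 (only the 2 groups), 1080 (replicate block), 4879 (GC offsets) and 4185 (block and GC offsets), against 1907, and 536 to 5680 with a library left out; in control cells 2 (no filter). For the interaction they numbered 878, 1342, 179 (replicate block), 1423 (GC offsets) and 873 (both), against 301, and 119 to 3623. The largest count in both came without co-cultured knockout replicate 3; the smallest came without co-cultured knockout replicate 1 and without co-cultured control replicate 2.

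Signs changed mostly where values were near 0. Alone, MRI1 and ODC1 were both -0.05 (DESeq2), -0.01 (no filter) and -0.00 (2 groups), and ran from -0.10 to 0.10 and from -0.09 to 0.06 with a library left out; WDR77 was 0.03 (library size only). With GC offsets APIP, ADI1 and SRM were -0.24, -0.13 and 0.31, and with the replicate block as well -0.24, -0.12 and 0.31. In co-culture MAT2A ran from -0.05 to 0.18 with a library left out. For co-culture in knockout cells AHCY was -0.01 (library size only), -0.15 (GC offsets) and -0.14 (block and GC offsets), and -0.13 to 0.23 with a library left out; SRM was 0.00 (no filter), -0.26 to 0.03; ODC1 was -0.00 with GC offsets, with or without the block. In control cells PRMT5 was -0.01 (DESeq2), -0.15 to 0.19; WDR77 -0.04 and, with the block, -0.03 (GC offsets), -0.06 to 0.13; SRM 0.11 with GC offsets, with or without the block. For the interaction PRMT5 was -0.05 (library size only), -0.08 to 0.27; SRM was -0.12 (library size only) and -0.45 (GC offsets, with or without the block), -0.12 to 0.18.

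Replicate numbers are shared between groups but nothing ties them to a shared culture: same-numbered libraries had deviations correlated from -0.603 to 0.491. Only MRI1 in co-culture lost its call among members under the replicate block alone (adjusted p = 0.0714). MTAP in knockout libraries rests on 7 to 21 counts per library. How large a difference between the knockout libraries could be detected at this depth was not tested.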
